A study of Mus musculus with 12 samples.

Results

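Collagens are the rods, meshes and anchoring fibrils of the extracellular matrix, and each molecule is wound from 3 chains encoded by the genes described here. The collagen chain genes were taken as every gene of the expression table whose symbol has the form Col, a type number, the letter a and a chain number, which gave 44 of 34714 genes. They were grouped into 11 fibrillar chains, 6 chains of the basement membrane collagen IV, 9 FACIT chains (collagens that sit on the surface of fibrils and interrupt their helix) and 18 other chains. The values came from RNA sequencing of mouse heart in 3 groups, in a study of leflunomide and heart damage under PD-1 blockade that used a mouse melanoma model. The group aPD1_lef (4 libraries) is labelled for an antibody against PD-1, the checkpoint receptor that restrains T cells, and for leflunomide, an inhibitor of pyrimidine synthesis. The group aPD1_veh (4 libraries) is labelled for the same antibody with veh, read here as the vehicle without drug. The group IgG_lef (3 of 4 labelled libraries used) is labelled for a control antibody with leflunomide. A group of control antibody with vehicle was not analysed here, so aPD1_veh and IgG_lef differ by label in antibody and in drug. That IgG_lef received leflunomide rests on that label. The labels used here give no strain, age, sex, dose or time, and do not say whether the libraries of a group came from separate animals, so the p-values measure only the spread between these samples, which may be technical.

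A collagen chain is built of repeated triplets headed by glycine, the only amino acid small enough for the core of the helix, and proline is common in the other positions. Fibroblasts of the heart secrete collagens I and III, which assemble into the interstitial fibrils that stiffen the wall, while collagen V starts those fibrils and limits their width. Collagen IV forms the sheet under vessel cells and around muscle cells. New procollagen is hydroxylated and folded in the endoplasmic reticulum, trimmed outside the cell and crosslinked by lysyl oxidases, and a scar is rich in its product.

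The coding sequences show what sets the fibrillar class apart, and 6 stretches of 54 bases from abundant chains are printed for this reason. In the gene models of GENCODE M21 (GRCm38), the longest unbroken run of triplets that start with a GGN glycine codon had a median of 338 triplets over the 11 fibrillar genes, with a range of 216 to 344. It was 338 in Col1a1, 339 in Col1a2 and 344 in Col3a1. The 6 collagen IV genes had longest runs of 39 to 66 triplets, with 22 to 27 separate runs of at least 5 triplets each. Longest runs of FACIT genes (32 to 113 triplets) and of the other genes (23 to 87) overlapped these. Exons of exactly 54 bases, which hold 6 whole triplets, made up 305 of the 649 coding exons of fibrillar genes (47.0%), against 109 of 432 in FACIT genes (25.2%), 43 of 625 in the other genes (6.88%) and 12 of 296 in collagen IV genes (4.05%). The first 4 lines are such exons, from Col1a1 (chr11:94939904-94939957, plus strand), Col1a2 (chr6:4515481-4515534, plus), Col3a1 (chr1:45325360-45325413, plus) and Col5a2 (chr1:45434892-45434945, minus). The last 2 lines are stretches within coding exons of Col4a1 (chr8:11235147-11235200, minus) and Col4a2 (chr8:11415964-11416017, plus), chosen because the repeat breaks there. Each is written 5′ to 3′ on the coding strand, and capitals mark the GGN codons at the head of a triplet. A further GGN codon in the last triplet of the Col1a1 exon is not at a head and stays in lower case.
Col1a1: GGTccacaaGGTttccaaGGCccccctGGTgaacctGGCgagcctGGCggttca
Col1a2: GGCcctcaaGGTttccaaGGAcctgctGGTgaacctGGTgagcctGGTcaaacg
Col3a1: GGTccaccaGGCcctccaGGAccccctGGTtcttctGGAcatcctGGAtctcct
Col5a2: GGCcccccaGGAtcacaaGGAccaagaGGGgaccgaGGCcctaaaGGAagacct
Col4a1: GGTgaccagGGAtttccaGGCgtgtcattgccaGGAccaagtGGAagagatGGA
Col4a2: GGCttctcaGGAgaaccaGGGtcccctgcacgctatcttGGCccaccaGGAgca
In the fibrillar exons a capital codon stands at the head of each of the 6 triplets. In Col4a1 the repeat is interrupted by 2 extra codons and in Col4a2 by 4.

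The deposited values were taken as FPKM (fragments per length of transcript and per depth of the library), so levels of different genes are comparable per length, and the read depth behind them is unknown. Library totals were 393494 to 413010 FPKM in aPD1_lef, 441935 to 465511 in aPD1_veh and 413628 to 440748 in IgG_lef. Libraries 1 and 2 of aPD1_lef and 2 of IgG_lef held transcripts of atrial muscle, with the atrial light chain Myl7 at 32.5, 43.0 and 266 FPKM, against at most 1.78 FPKM in the other 8 libraries. Changes below are differences of log2(FPKM + 1) from limma over the 12005 genes that reached 1 FPKM in at least 4 libraries, and a change was called at a Benjamini-Hochberg adjusted p under 0.05. The +1 shrinks the log2 change of genes with low values, so ratios of mean FPKM are given beside it. Of the 44 collagen genes, 25 passed that filter (7 fibrillar, 5 of collagen IV, 5 FACIT and 8 others). A gene can pass the filter on the 4 libraries of aPD1_lef by themselves, or on the 4 of aPD1_veh. The chains that passed lean towards genes high in aPD1_lef, and counts over them are given as description. Col9a2 reached 1 FPKM in no library outside aPD1_lef, and Col4a3, Col8a2, Col12a1, Col20a1 and Col27a1 also did so in fewer than 4 such libraries. These 6 chains would not have been tested without aPD1_lef, and the other 19 passed on the remaining libraries alone. Of the 19, Col6a6 reached 1 FPKM in no aPD1_lef library and in 4 others, so it passed only through groups where it was higher. In a bulk heart sample, more cells of a type and more RNA per cell cannot be told apart.

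The hearts labelled aPD1_lef held several times more collagen RNA than those of either other group. The 44 chains summed to 1279, 1073, 1916 and 4073 FPKM in aPD1_lef libraries 1 to 4, against 324, 236, 216 and 196 FPKM in aPD1_veh and 316, 476 and 1052 FPKM in IgG_lef libraries 1 to 3. Every aPD1_lef library lay above every other library, although IgG_lef library 3 was close below the lowest of them. As a share of all FPKM, collagen made up 0.260% to 1.04% in aPD1_lef, 0.0420% to 0.0725% in aPD1_veh and 0.0758% to 0.254% in IgG_lef. Library 4 of aPD1_lef, with the highest collagen sum, also had the lowest sum of 8 ventricular muscle markers, 7944 FPKM, against 16460 to 22950 FPKM in the other 3 aPD1_lef libraries and at least 22440 FPKM in aPD1_veh and IgG_lef. The part of this in its collagen values was not tested. The classes differed unequally. Fibrillar chains averaged 1130.0 ± 936 FPKM in aPD1_lef and 67.7 ± 19.3 FPKM in aPD1_veh (SD, n = 4 each), a ratio of 16.7, or 10.00 without aPD1_lef library 4. The corresponding ratio was 9.82 for FACIT chains, 8.12 for the other chains and 4.12 for collagen IV chains. Without that library these were 8.54, 6.84 and 2.97, so the fibrillar ratio was then closer to that of FACIT chains. Fibrillar chains were 44.2, 43.9, 51.8 and 61.2% of the collagen sum in aPD1_lef and 29.2, 28.8, 25.9 and 26.6% in aPD1_veh, while collagen IV chains were 26.2, 27.7, 22.4 and 22.1% in aPD1_lef and 48.2, 46.8, 53.6 and 48.3% in aPD1_veh. The balance thus differed without overlap between these groups. Col3a1 was the most abundant chain in all 4 aPD1_lef libraries and in IgG_lef library 3, and Col4a1 in all 4 aPD1_veh libraries and in IgG_lef libraries 1 and 2. In IgG_lef the fibrillar shares were 37.8, 39.1 and 63.3% and the collagen IV shares 34.85, 30.76 and 18.01%. By these shares its libraries 1 and 2 lay between aPD1_veh and aPD1_lef, and library 3 lay beyond the aPD1_lef range.

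**Figure D1:**
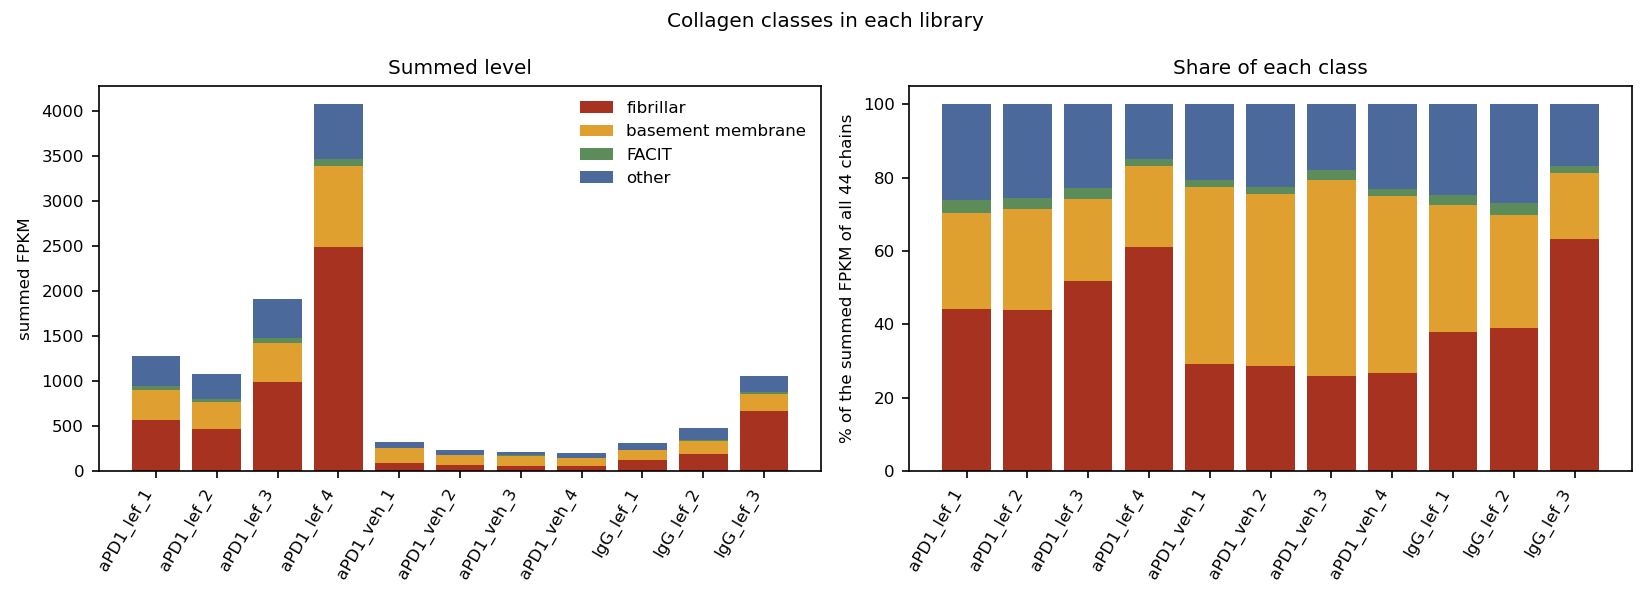
Summed FPKM of the 44 collagen chain genes by class in each of 11 libraries (left, stacked bars), and the share of each class in that sum in percent (right). The aPD1_lef bars run from 1073 to 4073 FPKM, above all others, and collagen IV falls to 22.1% to 27.7% of the sum there against 46.8% to 53.6% in aPD1_veh.

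The comparison of aPD1_lef with aPD1_veh bears on the effect of leflunomide under PD-1 blockade. Of the 25 collagen genes that passed the filter, 23 were higher in aPD1_lef, Col6a6 was lower and Col20a1 was not called. Of the 19 that passed without the help of aPD1_lef libraries, 18 were higher and 1 lower. With no filter 27 of all 44 chains were higher and 1 lower, against 8.50% and 6.21% of the genes in that fit. Over all 12005 genes tested, 18.2% were called higher and 14.3% lower, or 32.4% in either direction. All 23 genes called higher had every aPD1_lef library above every aPD1_veh library, a pattern found in 20.6% of genes tested. The median log2 change was 2.55 over the 25 chains and 0.04 over all genes. With no filter it was 1.31 over all 44 chains and 0.01 over all genes in that fit. All 7 fibrillar chains that passed were higher with a median of 3.24, all 5 of collagen IV with a median of 1.63, 4 of 5 FACIT chains with a median of 2.57 over the 5, and 7 of 8 other chains with a median of 2.61 over the 8. How the libraries were scaled moved the split over all genes, which was 2181 higher and 1711 lower as deposited, 3467 and 1124 with every library brought to the same total, and 1784 and 2205 after quantile normalization. The same-total scaling moved the median of all genes to 0.17. Among collagen genes the count stayed at 23 higher and 1 lower under these scalings, under median-ratio scaling, without aPD1_lef library 4, and without the 3 libraries that held atrial transcripts.

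Fibrillar chains showed the steepest differences per class. Col1a1 and Col1a2 encode the chains of collagen I, the main fibril of the heart wall. Col1a1 (chr11:94936224-94953042 in RefSeq GRCm38.p6, plus strand) was at 118, 89.7, 174 and 489 FPKM in aPD1_lef, against 17.2, 13.0, 9.90 and 7.82 FPKM in aPD1_veh. Its partner Col1a2 (chr6:4505618-4541543, plus) was at 159.5, 129.6, 253 and 573 FPKM in aPD1_lef, against 31.2, 23.8, 23.1 and 19.0 FPKM in aPD1_veh. In both genes the lowest aPD1_lef library exceeded the highest aPD1_veh library, and aPD1_lef library 4 stood far above its group. The log2 change of Col1a1 was 3.80 ± 0.61 (SE, limma adjusted p = 0.00203) and the ratio of means 18.2, or 10.6 without aPD1_lef library 4. Col1a2 changed by 3.24 ± 0.49 (adjusted p = 0.00152, limma), a ratio of 11.5, or 7.45 without that library. Col3a1 (chr1:45311538-45349706, plus), whose chains form collagen III of reticular and early scar fibrils, was at 212, 196, 441 and 1168 FPKM in aPD1_lef, against 31.5, 19.8, 13.2 and 16.2 FPKM in aPD1_veh. It had the largest log2 change of the 25 chains, 4.25 ± 0.66 (limma adjusted p = 0.00175), with a ratio of 25.0, or 14.0 without library 4.

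Collagen V, which nucleates collagen I fibrils, rose with them in 3 of 3 chains. Col5a2 (chr1:45374331-45503282, minus), the next fibrillar gene along the chromosome, 24624 bases from Col3a1, was at 42.1, 29.2, 76.9 and 159 FPKM in aPD1_lef, against 5.59, 4.33, 4.08 and 3.13 FPKM in aPD1_veh. Its partner chain Col5a1 (chr2:27886381-28039510, plus) was at 25.7, 20.4, 40.3 and 85.7 FPKM in aPD1_lef, against 6.42, 4.65, 3.52 and 3.69 FPKM in aPD1_veh. Both sets were separate, and the changes were 3.61 ± 0.51 for Col5a2 (limma adjusted p = 0.00113) and 2.79 ± 0.44 for Col5a1 (adjusted p = 0.00186). The ratio of Col5a2 means was 18.0, or 11.5 without aPD1_lef library 4. Col5a3, a chain of more restricted use, was at 4.16, 3.72, 5.65 and 13.9 FPKM in aPD1_lef, against 1.87, 1.45, 1.71 and 1.68 FPKM in aPD1_veh, with a change of 1.39 ± 0.33 (adjusted p = 0.0109, limma) and a ratio of 4.09, or 2.69 without library 4. Col27a1, a fibrillar chain known from cartilage, whose longest run is 217 triplets, was at 1.43, 1.39, 2.04 and 2.60 FPKM in aPD1_lef, against 0.817, 0.752, 0.286 and 0.476 FPKM in aPD1_veh. It changed by 0.85 ± 0.18 (limma adjusted p = 0.00666), the smallest of the 7. The groups did not overlap in either gene. Col27a1 passed the filter only with aPD1_lef libraries, so its call is a description. With no filter its adjusted p was 0.013 (limma).

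**Figure D2:**
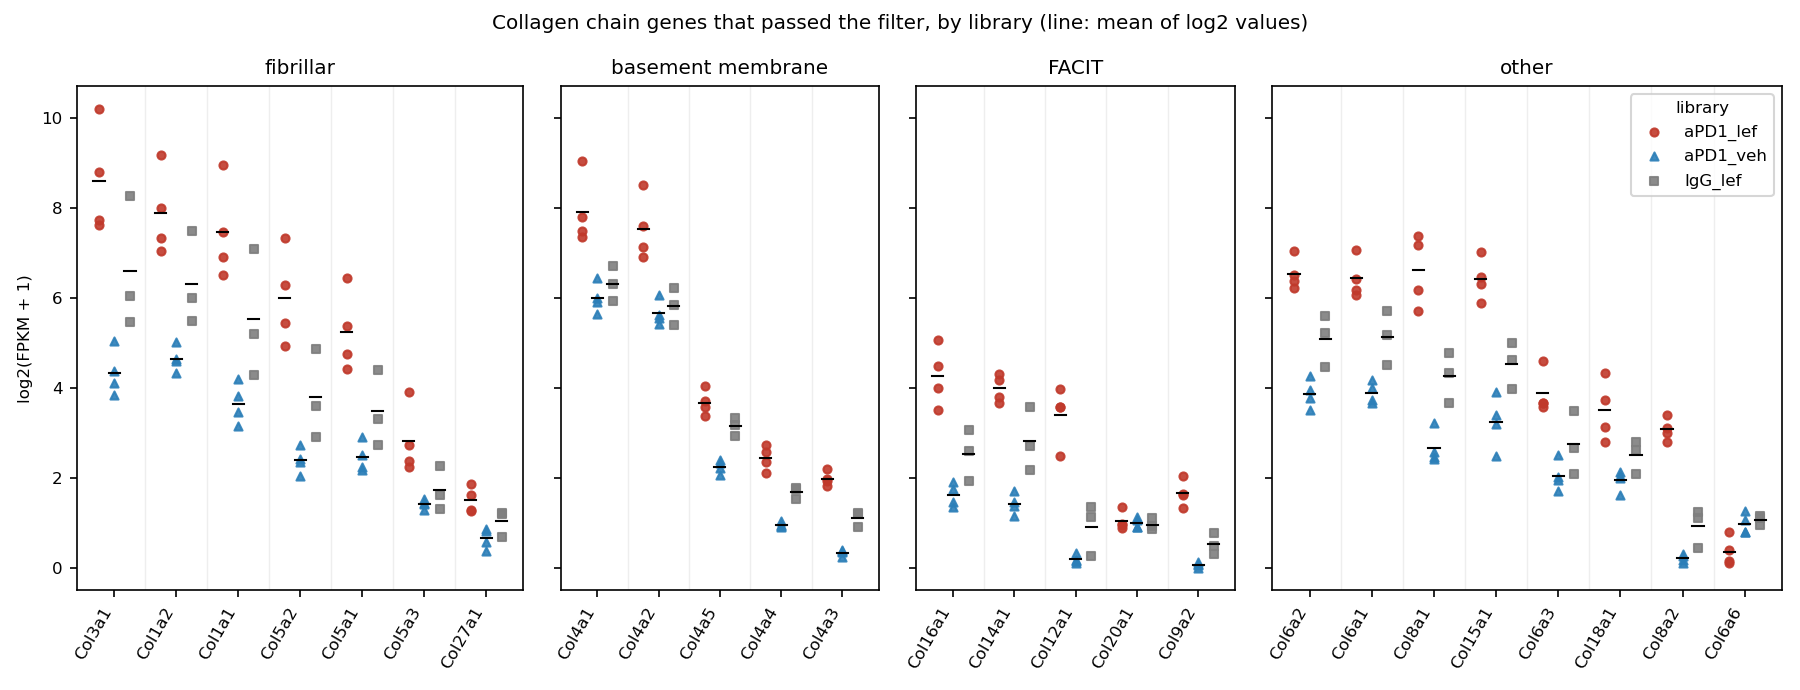
Level of the 25 collagen chain genes that passed the filter, as log2(FPKM + 1), by class. Each point is a library (red circles aPD1_lef, blue triangles aPD1_veh, grey squares IgG_lef) and the line is the group's mean on this scale. In all but Col20a1 and Col6a6 the aPD1_lef points lie above every aPD1_veh point, with IgG_lef in between or partly overlapping.

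Collagen IV moved less. Col4a1 (chr8:11198423-11312889, minus) and Col4a2 (chr8:11312805-11449287, plus) encode the common basement membrane trimer from head-to-head genes that overlap by 85 bases, and whether the counting used strand is not stated. Col4a1 was at 176, 161, 220.1 and 519.9 FPKM in aPD1_lef, against 85.4, 58.9, 62.5 and 48.3 FPKM in aPD1_veh, and Col4a2 was at 138, 119, 191 and 359 FPKM in aPD1_lef, against 65.7, 45.8, 48.0 and 41.8 FPKM in aPD1_veh. Every aPD1_lef library was above every aPD1_veh library, with library 4 again the highest. The log2 changes were 1.92 ± 0.34 (limma adjusted p = 0.00326) and 1.86 ± 0.31 (adjusted p = 0.00249), and the ratios 4.22 and 4.00. Col4a3, Col4a4 and Col4a5 form the alternative trimer best known from the filter membrane of the kidney. They were lower in level, and their aPD1_lef libraries lay close together. Col4a3 was at 3.56, 2.89, 2.49 and 2.80 FPKM in aPD1_lef, against 0.296, 0.302, 0.264 and 0.184 FPKM in aPD1_veh, a change of 1.63 ± 0.11 with an adjusted p of 2.62e-05 and a ratio of 11.2. Col4a3 passed the filter only with aPD1_lef libraries, so its call is a description. With no filter its adjusted p was 7.02e-05 (limma). Col4a4 was at 5.63, 4.90, 4.05 and 3.28 FPKM in aPD1_lef, against 0.921, 0.868, 1.05 and 0.909 FPKM in aPD1_veh (change 1.48 ± 0.13, adjusted p = 0.000132). These genes also overlap head to head, by 114 bases. Col4a5 was at 10.8, 9.40, 11.9 and 15.3 FPKM in aPD1_lef, against 4.03, 4.23, 3.63 and 3.14 FPKM in aPD1_veh (change 1.42 ± 0.14, adjusted p = 0.000184, ratio 3.16). No library of the other group reached the aPD1_lef range in any of these 5 genes.

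Among FACIT chains, which bind to fibrils of collagen I and help to join them to their surroundings, Col12a1 and Col9a2 had the largest ratios. Col12a1 (chr9:79598987-79721141, minus), found in tissue under mechanical load, was at 10.9, 4.57, 10.8 and 14.6 FPKM in aPD1_lef, against 0.244, 0.127, 0.110 and 0.0646 FPKM in aPD1_veh. It was thus near 0 in all 4 aPD1_veh libraries, and the ratio of means was 74.9, with a log2 change of 3.21 ± 0.30 (limma adjusted p = 0.000147). Col12a1 passed the filter only with aPD1_lef libraries, so its call is a description. With no filter its adjusted p was 0.000435 (limma). Col14a1, which limits fibril growth, was at 12.8, 11.7, 16.9 and 18.8 FPKM in aPD1_lef, against 2.26, 1.56, 1.74 and 1.21 FPKM in aPD1_veh, a ratio of 8.90 (change 2.57 ± 0.26, adjusted p = 0.00021). Col16a1, an adaptor of fibrils and cell contacts, was at 14.8, 10.3, 21.2 and 32.1 FPKM in aPD1_lef, against 2.72, 1.75, 2.34 and 1.55 FPKM in aPD1_veh, a ratio of 9.40 (change 2.64 ± 0.32, adjusted p = 0.000497). Neither overlapped. Col9a2, a chain of the cartilage collagen IX, was at 2.07, 1.49, 3.07 and 2.09 FPKM in aPD1_lef, against 0.0514, 0.0448, 0.0817 and 0 FPKM in aPD1_veh, a ratio of 49.0. It was tested only because it is high in aPD1_lef, so its place among the chains called is a description. In the fit with no filter its adjusted p was 0.00041 (limma). The other collagen IX chains were low in every group, with Col9a1 listed at 0 in 8 of 11 libraries and Col9a3 at no more than 0.258 FPKM. Col20a1 was at 0.941, 0.937, 0.833 and 1.54 FPKM in aPD1_lef, against 0.869, 1.09, 1.16 and 0.875 FPKM in aPD1_veh, with overlapping groups, a change of 0.04 ± 0.12 and an adjusted p of 0.842.

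Of the remaining chains, the 3 of collagen VI, whose beaded filaments link fibrils to cells, were higher together. Col6a1 was at 71.3, 65.7, 84.7 and 133 FPKM in aPD1_lef, against 17.0, 14.8, 11.6 and 12.1 FPKM in aPD1_veh. Col6a2 was at 81.7, 73.3, 89.5 and 131 FPKM in aPD1_lef, against 18.0, 14.4, 10.3 and 12.6 FPKM in aPD1_veh, and Col6a3, the large chain, was at 11.7, 10.9, 11.7 and 23.0 FPKM in aPD1_lef, against 4.63, 3.01, 2.26 and 2.86 FPKM in aPD1_veh. None of the 3 overlapped between groups. The log2 changes were 2.55 ± 0.27, 2.67 ± 0.26 and 1.83 ± 0.31 (limma adjusted p = 0.000241, 0.000153 and 0.00249). Col6a6, a chain related to Col6a3 that can take its place, went the other way. It was at 0.314, 0.722, 0.109 and 0.0687 FPKM in aPD1_lef, against 0.718, 1.40, 0.729 and 1.07 FPKM in aPD1_veh, with overlapping libraries, a change of -0.61 ± 0.17 and an adjusted p of 0.0184 (limma). Its ratio of means was 0.310, or 0.167 without aPD1_lef library 2, and the call was lost without aPD1_lef library 3, aPD1_veh library 2 or aPD1_veh library 4. Col6a6 passed the filter only on libraries outside aPD1_lef, so its call is a description. With no filter its adjusted p was 0.0312 (limma). The 2 other chains of this kind, Col6a4 and Col6a5, did not exceed 0.0885 FPKM in any library.

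Collagen VIII, a short-chain collagen that forms hexagonal nets in vessel walls and in the cornea, differed strongly in both chains. Col8a1 (chr16:57624256-57754737, minus) was at 71.4, 51.2, 144 and 164 FPKM in aPD1_lef, against 8.20, 4.96, 4.36 and 4.53 FPKM in aPD1_veh. Col8a2 (chr4:126286794-126314330, plus) was at 6.96, 5.91, 7.64 and 9.50 FPKM in aPD1_lef, against 0.227, 0.195, 0.0761 and 0.118 FPKM in aPD1_veh. Ranges were far apart, with ratios of 19.5 and 48.6 and changes of 3.94 ± 0.37 and 2.87 ± 0.18 (limma adjusted p = 0.000147 and 2.01e-05). Col8a2 passed the filter only with aPD1_lef libraries, so its call is a description. With no filter its adjusted p was 7.02e-05 (limma). Col15a1 and Col18a1 encode the related collagens XV and XVIII, which lie at basement membranes and whose ends can be released as fragments that act on vessels. Col15a1 was at 78.0, 57.9, 86.9 and 127 FPKM in aPD1_lef, against 13.9, 9.54, 4.58 and 8.09 FPKM in aPD1_veh, a ratio of 9.68 (change 3.17 ± 0.33, adjusted p = 0.00021). Col18a1 was at 7.76, 5.95, 12.3 and 19.0 FPKM in aPD1_lef, against 3.10, 3.33, 2.97 and 2.05 FPKM in aPD1_veh, a ratio of 3.93 (change 1.56 ± 0.29, adjusted p = 0.00425). Both were without overlap.

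The DNA before these genes is not alike, and 3 windows from genes that differed together are printed to show it. They are the 250 bases before the start of transcription in RefSeq (GRCm38.p6), chosen among windows with no base in a GENCODE exon or inside the RefSeq gene. They lie at chr1:45311288-45311537 (plus strand) for Col3a1, chr16:57754738-57754987 (minus) for Col8a1 and chr10:76623631-76623880 (minus) for Col6a2. Capitals mark matches on either strand to the motifs searched.
Col3a1: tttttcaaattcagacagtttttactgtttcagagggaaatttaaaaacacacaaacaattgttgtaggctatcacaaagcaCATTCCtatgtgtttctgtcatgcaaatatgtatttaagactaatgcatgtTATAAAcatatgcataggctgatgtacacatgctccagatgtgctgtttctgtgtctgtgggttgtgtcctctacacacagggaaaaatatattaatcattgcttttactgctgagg
Col8a1: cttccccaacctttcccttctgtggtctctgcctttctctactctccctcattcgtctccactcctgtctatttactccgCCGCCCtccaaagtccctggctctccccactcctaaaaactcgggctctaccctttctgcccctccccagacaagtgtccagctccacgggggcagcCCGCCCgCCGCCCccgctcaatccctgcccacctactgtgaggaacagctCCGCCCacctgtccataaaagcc
Col6a2: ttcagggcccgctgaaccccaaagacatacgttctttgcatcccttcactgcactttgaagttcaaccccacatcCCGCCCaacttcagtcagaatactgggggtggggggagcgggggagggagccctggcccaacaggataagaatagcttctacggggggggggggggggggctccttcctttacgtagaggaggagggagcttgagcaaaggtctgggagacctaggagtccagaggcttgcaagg
The Col3a1 window had 35.2% G and C and 0 CpG sites, the Col8a1 window 60.8% and 10 sites, and the Col6a2 window 59.2% and 6 sites. RefSeq windows were matched for 35 of the 44 genes, 3 of them with 2 windows each. Their median was 59.0% G and C, against 52.4% over all 32851 windows. The motifs were searched on both strands, and none contains another. GGGCGG, the core that Sp1 factors bind, was present before 21 of 35 collagen genes and in 32.7% of all windows. The box CCAAT was present before 13 genes (33.8% of all windows) and the TATA-type motif TATAAA before 5 genes (12.4%). The motif GGAATG, of TEAD factors, was present before 4 genes (12.6%), and TGANTCA, of AP-1 factors, before 1 gene (6.75%). In the windows printed, Col3a1 holds TATAAA once and GGAATG once, Col8a1 holds 4 copies of GGGCGG and Col6a2 holds 1.

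The 19 chains under the filter were described without it. In a fit of all 24367 genes above 0 in any library, 4 of the 19 were called higher in aPD1_lef than in aPD1_veh (8.50% of genes in that fit were called higher and 6.21% lower) and 0 lower, with limma. They were Col22a1, a FACIT chain of tendon and muscle junctions, Col26a1, Col28a1, known from peripheral nerve, and Col4a6, the partner of Col4a5. Col22a1 was at 4.28, 1.57, 0.776 and 0.573 FPKM in aPD1_lef, against 0.0339, 0.0538, 0.0176 and 0.115 FPKM in aPD1_veh (log2 change 1.23, adjusted p = 0.0257). Col26a1 was at 0.737, 0.531, 0.783 and 0.600 FPKM in aPD1_lef, against 0.0646, 0, 0.0482 and 0.0857 FPKM in aPD1_veh (0.66, adjusted p = 0.000411). Col28a1 (0.525 to 1.06 FPKM in aPD1_lef, 0.140 to 0.329 in aPD1_veh) and Col4a6 (0.448 to 0.934 and 0.132 to 0.344) changed by 0.51 and 0.50. Col11a1, a fibrillar chain best known from cartilage, was at 1.05, 0.467, 0.0757 and 0.236 FPKM in aPD1_lef and listed at 0 in all 4 aPD1_veh libraries, and was not called (0.50, adjusted p = 0.0648). The cartilage-type chains Col2a1, Col9a1, Col9a3, Col11a1 and Col11a2 and also Col22a1 had their highest value in aPD1_lef library 1. Other chains known from cartilage did not. Col9a2 was highest in aPD1_lef library 3 (3.07 FPKM), Col27a1 in library 4 (2.60 FPKM) and Col10a1 in library 2 (0.0536 FPKM). Col2a1 was at 0.777, 0.0732, 0.0326 and 0.0680 FPKM in aPD1_lef, against 0.00581, 0, 0 and 0 FPKM in aPD1_veh. Library 1 is among those with atrial transcripts, and whether the piece of heart sampled has a part in these values was not tested. Of the cartilage and valve markers listed, Chad, a cartilage matrix protein, was at 27.8, 11.6, 0.655 and 0.180 FPKM in aPD1_lef, 0.136, 1.49, 0.170 and 0.0464 FPKM in aPD1_veh and 0.149, 9.86 and 0.124 FPKM in IgG_lef, so its 3 highest values were in the 3 libraries with atrial transcripts. Fmod, a fibril proteoglycan, was at 65.7, 37.8, 19.2 and 12.4 FPKM in aPD1_lef, 0.131 to 2.42 FPKM in aPD1_veh and 1.73, 12.2 and 2.73 FPKM in IgG_lef, with library 1 again the highest. Acan and Hapln1 reached at most 0.594 and 0.677 FPKM in aPD1_lef, 0.0339 and 0.0253 in aPD1_veh, and 0.191 and 0.169 in IgG_lef, and Matn1 was listed at 0 in aPD1_lef and IgG_lef. Col13a1, Col17a1, Col23a1 and Col25a1 (membrane-spanning chains), Col7a1 (anchoring fibrils), Col10a1 (growth plate cartilage), Col19a1 and Col24a1 were not called. Their highest value was 1.34 FPKM, in Col23a1. In the same fit, Col26a1 was the only chain of the 19 called between aPD1_lef and IgG_lef, higher by 0.60 (adjusted p = 0.0178, with 0.911% of genes called higher and 0.226% lower). Between aPD1_veh and IgG_lef, 0 of the 19 were called (0.0657% of genes higher and 0.312% lower).

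**Figure D3:**
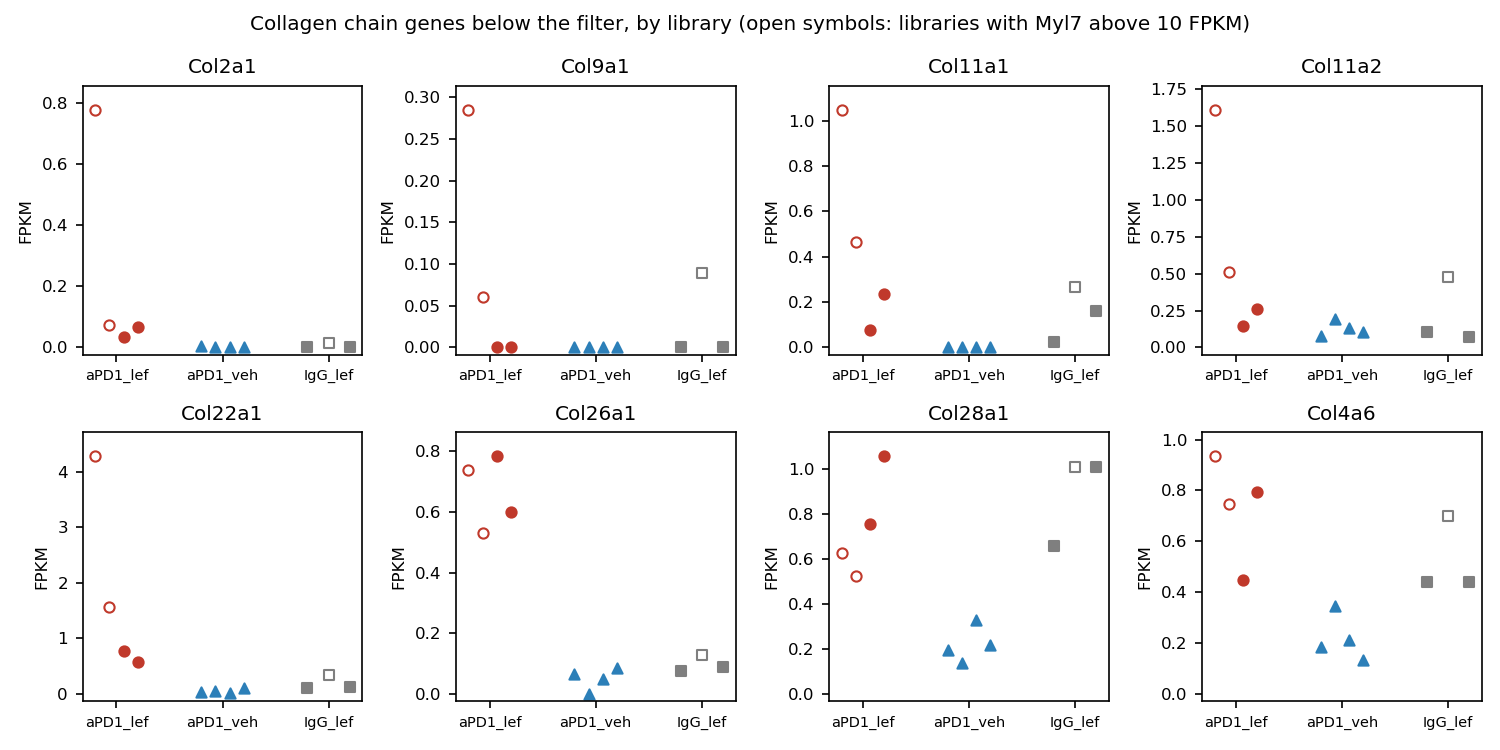
FPKM of 8 collagen chain genes below the filter in each library (red circles aPD1_lef, blue triangles aPD1_veh, grey squares IgG_lef, open symbols for the 3 libraries with Myl7 above 10 FPKM). Col2a1, Col9a1, Col11a1, Col11a2 and Col22a1 peak in 1 aPD1_lef library with open symbol, while all 4 aPD1_lef values of Col26a1 are at or above 0.531 FPKM.

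Ratios between chains within a library do not depend on the scaling between libraries, and several differed between groups. They are given with no test. Col1a1 over Col1a2 was 0.739, 0.692, 0.687 and 0.853 in aPD1_lef, 0.552, 0.546, 0.429 and 0.411 in aPD1_veh and 0.427, 0.570 and 0.758 in IgG_lef, so aPD1_lef lay above aPD1_veh without overlap. Collagen I is mostly assembled from 2 chains of the first kind and 1 of the second. Col5a1 over Col5a2 ran the other way, at 0.610, 0.698, 0.525 and 0.538 in aPD1_lef, 1.15, 1.07, 0.864 and 1.18 in aPD1_veh and 0.875, 0.802 and 0.712 in IgG_lef, and the 3 groups did not overlap except that IgG_lef library 1 exceeded the lowest aPD1_veh library. Col4a3 over Col4a4 was 0.589 to 0.852 in aPD1_lef and 0.203 to 0.348 in aPD1_veh, and Col8a2 over Col8a1 was 0.0532 to 0.116 and 0.0175 to 0.0393, also apart. Col6a3 over Col6a1 was 0.138 to 0.173 in aPD1_lef and 0.195 to 0.273 in aPD1_veh. The pairs Col4a1 over Col4a2 (1.15 to 1.45, 1.16 to 1.30 and 1.38 to 1.44 in aPD1_lef, aPD1_veh and IgG_lef) and Col6a1 over Col6a2 (0.873 to 1.02, 0.945 to 1.12 and 0.964 to 1.08) overlapped between groups, as did Col3a1 over Col1a1.

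**Figure D4:**
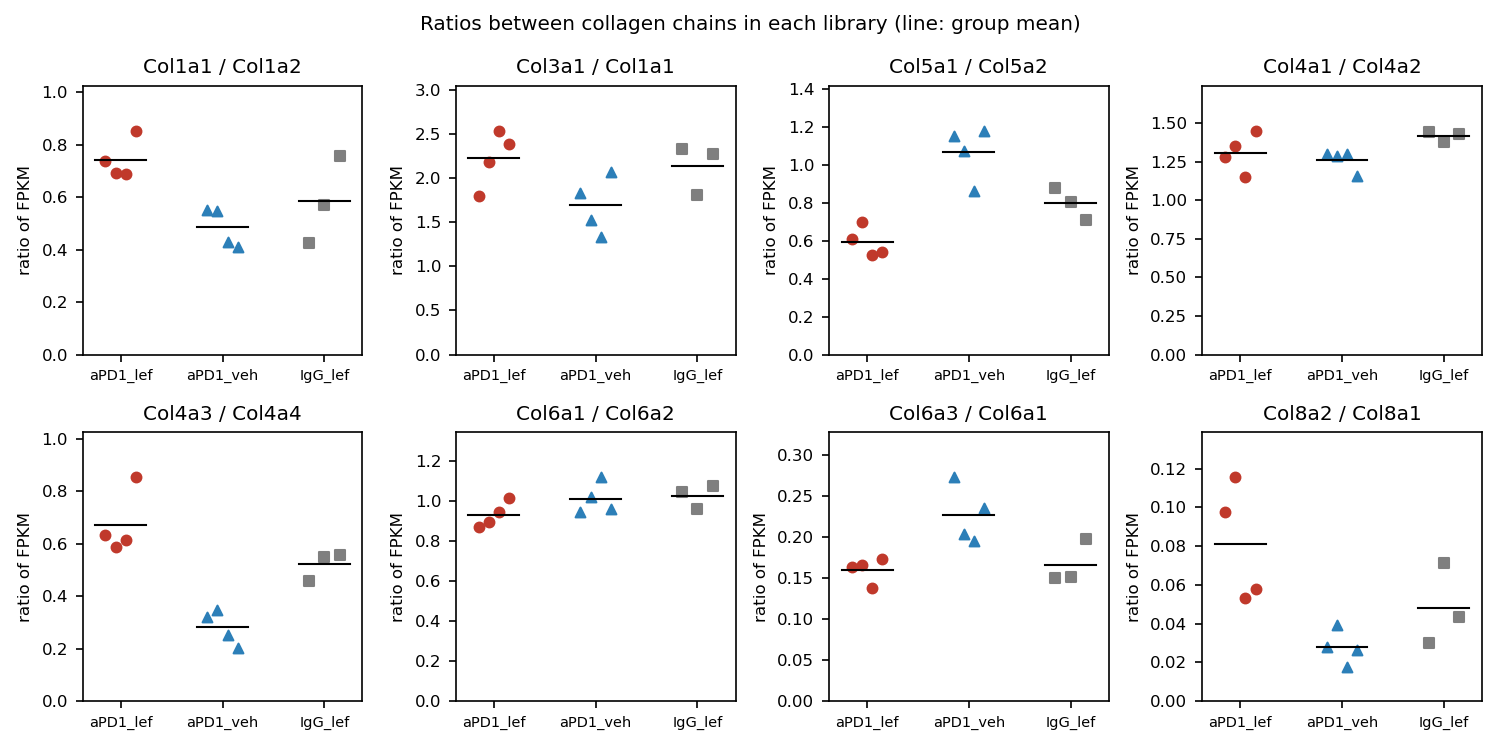
Ratio of the FPKM of the named collagen chains in each library, with the group mean as a line (red circles aPD1_lef, blue triangles aPD1_veh, grey squares IgG_lef). Col5a1 over Col5a2 lies at or below 0.698 in aPD1_lef and at or above 0.864 in aPD1_veh, whereas Col4a1 over Col4a2 overlaps between groups.

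The comparison of aPD1_veh with IgG_lef, which differ by label in antibody and drug, showed lower collagen in aPD1_veh with few calls. Of the 25 chains, 4 were lower in aPD1_veh and 0 higher, with limma, against 0.925% and 0.242% of all 12005 genes tested (1.17% in either direction), and 16 of 25 had an unadjusted p under 0.05, as had 11.4% of all genes. In 15 of the 25 the highest aPD1_veh library was below the lowest IgG_lef library, as in 7.91% of all genes, and in 0 above. The 4 were Col4a3, Col4a4, Col4a5 and Col14a1. The alternative collagen IV trimer was thus called in all 3 chains under the filter. Col4a3 passed it only with aPD1_lef libraries, so its call is a description. Of the 19 chains that passed without their help, 3 were lower and 0 higher. With no filter 2 of all 44 were lower and 0 higher (limma), against 0.312% and 0.0657% of the genes in that fit. These were Col4a3 (adjusted p = 0.0276) and Col4a5, at the threshold, while Col4a4 (adjusted p = 0.0698) was not called. Col4a3 was at 0.184 to 0.302 FPKM in aPD1_veh and 0.860, 1.28 and 1.33 FPKM in IgG_lef, a change of -0.77 ± 0.12 (adjusted p = 0.0149). Col4a4 was at 0.868 to 1.05 FPKM in aPD1_veh and 1.88, 2.34 and 2.40 FPKM in IgG_lef (-0.72 ± 0.14, adjusted p = 0.0375), and Col4a5 at 3.14 to 4.23 and 6.59, 8.01 and 8.94 FPKM (-0.89 ± 0.16, adjusted p = 0.0222). The common chains were not called: Col4a1 was at 63.8 ± 15.6 FPKM in aPD1_veh (SD, n = 4) and 80.2 ± 22.4 FPKM in IgG_lef (SD, n = 3), with an adjusted p of 0.820 from limma. Col14a1 was at 1.21 to 2.26 FPKM in aPD1_veh and 3.48, 5.49 and 10.8 in IgG_lef (-1.39 ± 0.29, adjusted p = 0.0463). All 4 calls were lost without the 3 libraries with atrial transcripts, without IgG_lef library 2 or 3, or without aPD1_veh library 4, and 8 chains were called without aPD1_lef library 4, which enters only through the shared spread.

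Fibrillar chains were not called between aPD1_veh and IgG_lef, where IgG_lef was widely spread. Col1a1 was at 17.2, 13.0, 9.90 and 7.82 FPKM in aPD1_veh, against 18.5, 35.6 and 134 FPKM in IgG_lef. Col3a1 was at 31.5, 19.8, 13.2 and 16.2 FPKM in aPD1_veh, against 43.1, 64.3 and 303 FPKM in IgG_lef. Each aPD1_veh library was below each IgG_lef library in both genes, but IgG_lef library 3 was several times above its group. The changes were -1.87 ± 0.66 (adjusted p = 0.289, limma) and -2.25 ± 0.71 (adjusted p = 0.224). The ratios of means were 0.192 and 0.148, or 0.443 and 0.376 without IgG_lef library 3. The median log2 change over the 25 chains was -0.77, against 0.01 over all genes. With no filter it was -0.32 over all 44 chains and 0 over all genes in that fit.

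The comparison of aPD1_lef with IgG_lef differs by label in the antibody. It gave 15 chains higher and Col6a6 lower of the 25, against 5.15% of all genes tested called higher and 2.01% lower (7.16% in either direction), with a median log2 change of 1.45 over the chains and 0.03 over all genes. Of the 19 chains that passed without the help of aPD1_lef libraries, 11 were higher and 1 lower. With no filter 11 of all 44 were higher and 0 lower (limma), against 0.911% and 0.226% of the genes in that fit. Its median log2 change was 0.68 over the 44 chains and 0.01 over all genes. There, 26 of 44 chains and 4620 of 24367 genes had an unadjusted p under 0.05. In 19 of the 25 every aPD1_lef library lay above every IgG_lef library, as in 15.3% of all genes. Both chains of collagen VIII were higher. Col8a2 was at 6.96, 5.91, 7.64 and 9.50 FPKM in aPD1_lef, against 0.344, 1.36 and 1.14 FPKM in IgG_lef (2.15 ± 0.19, limma adjusted p = 0.00329), and Col8a1 at 71.4, 51.2, 144 and 164 FPKM in aPD1_lef, against 11.6, 19.2 and 26.4 FPKM in IgG_lef (adjusted p = 0.0194). Col12a1 changed by 2.49 ± 0.33 (adjusted p = 0.00981), with 4.57 to 14.6 FPKM in aPD1_lef and 0.202, 1.53 and 1.18 FPKM in IgG_lef. Also higher were Col4a1, Col4a2, Col4a3, Col4a4, Col5a1, Col5a2, Col6a1, Col6a2, Col14a1, Col15a1 and Col16a1, by 0.76 (Col4a4) to 2.20 (Col5a2) on the log2 scale. Col9a2, the remaining call, was at 2.07, 1.49, 3.07 and 2.09 FPKM in aPD1_lef, against 0.399, 0.715 and 0.235 FPKM in IgG_lef, and the filter favoured it by admitting it through aPD1_lef alone. Col4a3, Col8a2 and Col12a1 also needed aPD1_lef libraries to pass. With no filter their adjusted p were 0.0178, 0.00865 and 0.0178 (limma). The 3 most abundant fibrillar chains were not called, and IgG_lef library 3 reached into the aPD1_lef range. Col1a1 was at 118, 89.7, 174 and 489 FPKM in aPD1_lef and 18.5, 35.6 and 134 FPKM in IgG_lef (ratio 3.48, adjusted p = 0.0864), and the ratio was 2.03 without aPD1_lef library 4, while without IgG_lef library 3 it was 8.04 and the call was made. Col1a2 had a ratio of 2.97 and Col3a1 of 3.69 (adjusted p = 0.0829 and 0.0951), or 1.92 and 2.07 without aPD1_lef library 4 and 5.27 and 9.39 without IgG_lef library 3. The ratios of Col5a1 and Col5a2 were 3.74 and 5.06, or 5.93 and 8.78 without IgG_lef library 3, and that of Col5a2 was 3.25 without aPD1_lef library 4. Col6a6 was at 0.314, 0.722, 0.109 and 0.0687 FPKM in aPD1_lef, below all 3 values of 1.21, 1.14 and 0.932 FPKM in IgG_lef, with an adjusted p of 0.0426 and a ratio of 0.277, or 0.150 without aPD1_lef library 2. This call was lost with no filter (adjusted p = 0.0763, limma), with a pseudocount of 0.1 and with the replicate number as a block. Leaving out any 1 library other than aPD1_lef library 2 or 4 also removed it. Col6a6 passed the filter only on libraries outside aPD1_lef, so its call is a description. Fewer chains were called without IgG_lef library 1 (1 chain), aPD1_lef library 3 (4), IgG_lef library 2 (4) or aPD1_veh library 2 (10). The count also fell without aPD1_lef library 1 (11) or 4 (14), or aPD1_veh library 1 (12), 3 (11) or 4 (12). It rose without aPD1_lef library 2 (22) or IgG_lef library 3 (17). When aPD1_veh was left out of the fit 0 were called, and limma gave 24 of 25 an unadjusted p under 0.05, against 22.2% of all genes. The split over all genes was 618 higher and 241 lower, but 584 and 481 under median-ratio scaling and 652 and 538 after quantile normalization, with the 15 and 1 collagen calls standing at the same counts. In the comparison of aPD1_veh with IgG_lef it was 29 higher and 111 lower, and 15 and 131 with every library at the same total. The 3 comparisons share libraries pairwise and are not independent of each other.

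**Figure D5:**
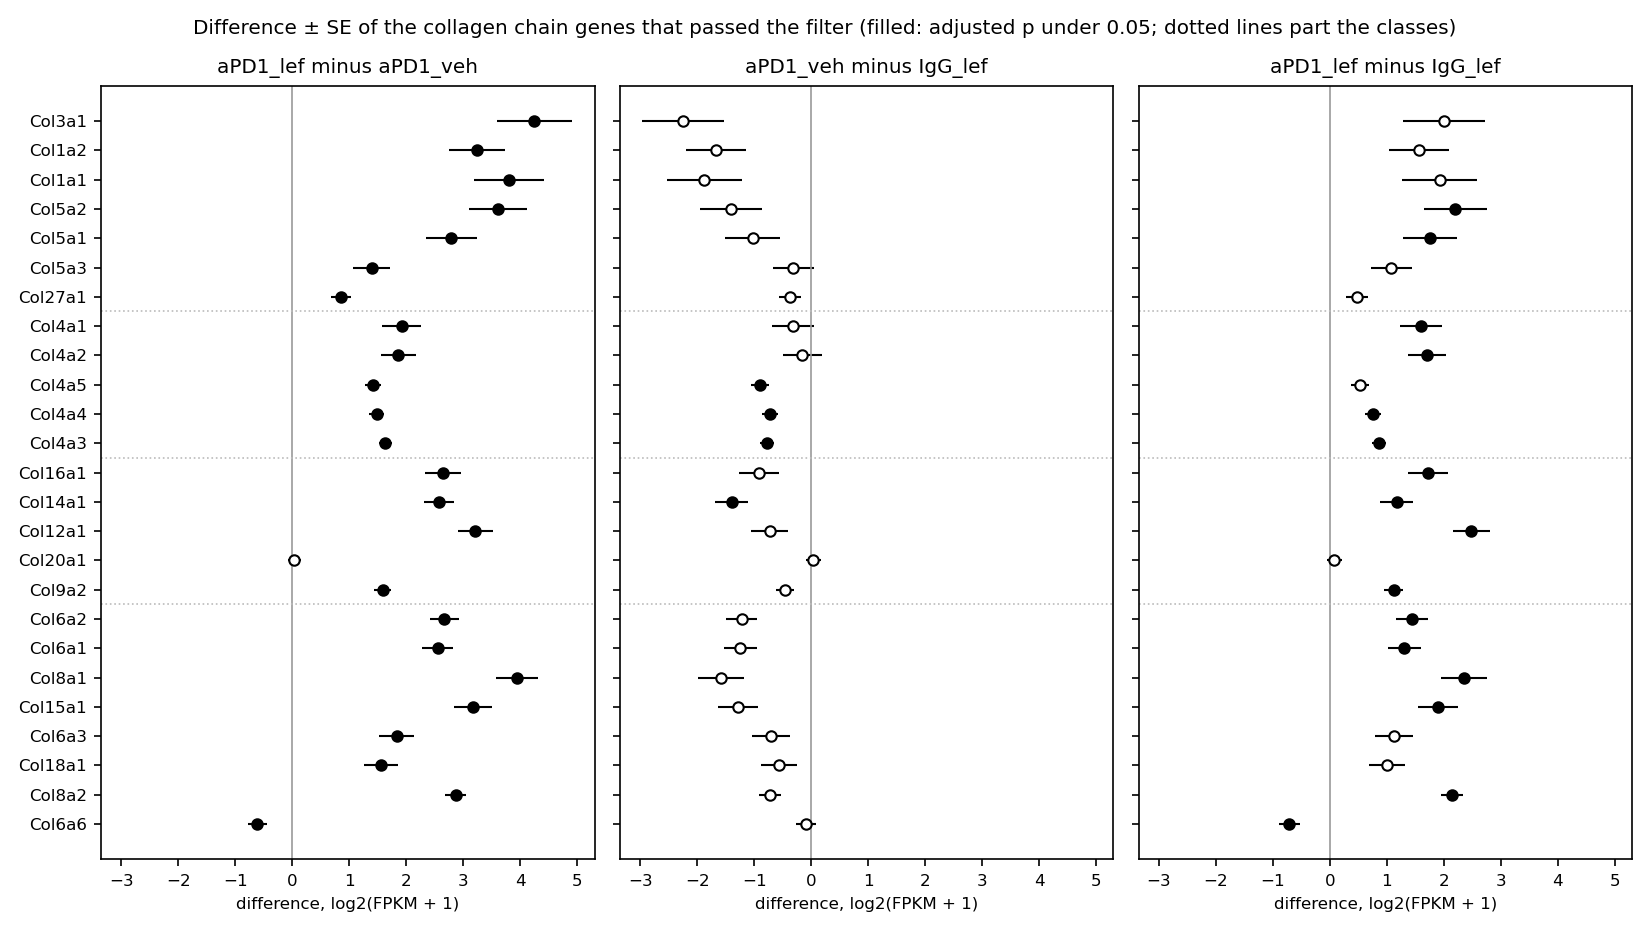
Difference of log2(FPKM + 1) with its SE for 25 collagen chain genes in the 3 comparisons, with the first-named group minus the second. Filled points passed an adjusted p of 0.05 and dotted lines part fibrillar, collagen IV, FACIT and other chains. Filled points number 24, 4 and 16 from left to right.

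The enzymes that fold, export and crosslink collagen were taken as listed groups beside the chains. Over all 12005 genes tested, 18.2% were called higher in aPD1_lef than in aPD1_veh and 14.3% lower. Of 18 genes of procollagen folding and modification that passed the filter (19 listed), 15 were higher in aPD1_lef than in aPD1_veh and 0 lower, with a median log2 change of 0.95. Among them the prolyl 3-hydroxylase P3h2 averaged 5.96 ± 1.16 FPKM in aPD1_lef and 1.66 ± 0.245 FPKM in aPD1_veh (SD, n = 4 each, limma adjusted p = 0.000153), and Sparc, a collagen chaperone outside the cell, 796 ± 343 FPKM in aPD1_lef and 146 ± 23.4 FPKM in aPD1_veh (adjusted p = 0.000708). P3h3, another enzyme of this kind, was higher too (23.6 ± 8.90 FPKM in aPD1_lef and 6.27 ± 0.803 FPKM in aPD1_veh). Of 9 export and processing genes (13 listed), 6 were higher and 0 lower. They include the procollagen trimming enzyme Adamts2, at 27.0 ± 10.9 FPKM in aPD1_lef and 3.63 ± 0.769 FPKM in aPD1_veh, and the enhancers of procollagen cleavage Pcolce and Pcolce2, with adjusted p of 0.000796 and 0.000156. Of 11 genes of crosslinking and fibril organisation, 9 were higher and 0 lower, with a median of 2.59. The proteoglycan Bgn averaged 747 ± 265 FPKM in aPD1_lef and 105 ± 29.4 FPKM in aPD1_veh, and the lysyl oxidase Loxl4 1.66 ± 0.421 FPKM in aPD1_lef and 0.273 ± 0.0994 FPKM in aPD1_veh. Lum, a fibril-spacing proteoglycan, averaged 105 ± 16.0 FPKM in aPD1_lef and 32.7 ± 4.85 FPKM in aPD1_veh (adjusted p = 0.000144).

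Receptors and breakdown genes moved as well, beside the same 18.2% of all genes called higher and 14.3% lower in aPD1_lef than in aPD1_veh. Of 7 collagen receptors that passed (10 listed), 6 were higher, among them Itga11, the integrin of fibroblasts, at 4.33 ± 2.67 FPKM in aPD1_lef and 0.531 ± 0.136 FPKM in aPD1_veh, Ddr1, a receptor kinase, at 12.2 ± 1.68 FPKM in aPD1_lef and 6.83 ± 0.789 FPKM in aPD1_veh, and Mrc2, which takes up collagen for breakdown, at 27.7 ± 13.9 FPKM in aPD1_lef and 5.05 ± 0.807 FPKM in aPD1_veh. Of 7 genes of collagen breakdown (10 listed), 6 were higher and Mmp9 was lower. Mmp2, a gelatinase, averaged 85.0 ± 11.3 FPKM in aPD1_lef and 18.1 ± 1.502 FPKM in aPD1_veh (adjusted p = 2.01e-05), and the collagen-cutting protease Ctsk 20.2 ± 5.33 FPKM in aPD1_lef and 3.21 ± 0.475 FPKM in aPD1_veh. Timp2, an inhibitor of such proteases, averaged 86.6 ± 9.15 FPKM in aPD1_lef and 39.6 ± 7.20 FPKM in aPD1_veh. Of 11 basement membrane partners of collagen IV, 9 were higher with a median of 0.69, such as the laminin chains Lama2 and Lamc1 and the linker Nid1 at 57.9 ± 6.07 FPKM in aPD1_lef and 29.2 ± 2.57 FPKM in aPD1_veh. In the comparison of aPD1_lef with IgG_lef, the same lists had 5 of 18, 4 of 9, 8 of 11, 3 of 7, 3 of 7 and 1 of 11 genes called higher and 0 lower in the order given. Over all genes tested, 5.15% were called higher there and 2.01% lower, so the 1 of 11 lies near the share. Between aPD1_veh and IgG_lef, 0 folding, export and receptor genes were called in either direction with limma, Lum, Mmp2, Lama2, Agrn and Nid1 were called lower, and Mmp9 higher. Of all genes, 0.925% were called lower in that comparison and 0.242% higher.

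Markers of the cell types a heart sample can hold moved unequally beside the chains. Over all genes tested, 18.2% were called higher in aPD1_lef than in aPD1_veh and 14.3% lower. The few calls among pericyte, Schwann cell and leukocyte markers are therefore given as description. Of 9 fibroblast markers, 6 were higher in aPD1_lef than in aPD1_veh, with a summed level of 1882 to 2611 FPKM against 1125 to 1637 FPKM. Of 8 markers of activated fibroblasts, 6 were higher, with sums of 306 to 1103 FPKM in aPD1_lef and 57.5 to 113 FPKM in aPD1_veh. Postn, a matrix protein of activated fibroblasts, averaged 558 ± 314 FPKM in aPD1_lef and 14.6 ± 5.48 FPKM in aPD1_veh, and Mfap5, of quiescent adventitial fibroblasts, 163 ± 71.1 FPKM in aPD1_lef and 13.5 ± 5.74 FPKM in aPD1_veh. Of 8 endothelial markers 0 were called with limma, with sums of 397 to 460 FPKM in aPD1_lef and 429 to 458 FPKM in aPD1_veh. Of 8 ventricular muscle markers 3 were lower, Tnni3, Pln and Ryr2, with sums of 20350, 22950, 16460 and 7944 FPKM in aPD1_lef and 22440 to 31290 FPKM in aPD1_veh. The lowest is library 4, and without it Myh6 was called lower beside these 3. Of 8 pericyte and smooth muscle markers, Pdgfrb and Cspg4 were higher and Abcc9 was lower. Of 4 measured cartilage and valve markers, Fmod and Prg4 were higher and Cnmd was lower, with sums over the 8 listed of 44.5 to 132.6 FPKM in aPD1_lef and 4.01 to 12.5 FPKM in aPD1_veh. None of 3 mesothelial markers was called, 1 of 3 Schwann cell markers (Scn7a) was higher, and of 6 leukocyte markers S100a8 was lower. The 8 skeletal muscle markers did not pass the filter. The part of any of these cells in the collagen values was not tested. Col1a1 was divided by each of the 9 fibroblast markers, and the aPD1_lef libraries lay above the aPD1_veh libraries without overlap for 8 of them. The ratio over Mfap5 overlapped, at 0.841, 1.07, 1.00 and 1.92 in aPD1_lef, 0.867, 1.29, 0.593 and 1.05 in aPD1_veh and 1.099, 1.17 and 3.74 in IgG_lef. Col1a1 over Pdgfra was 10.1, 6.43, 16.0 and 16.0 in aPD1_lef, 2.20, 1.71, 1.01 and 1.08 in aPD1_veh and 1.95, 3.23 and 10.3 in IgG_lef, and Col1a1 over Dcn was 0.127 to 0.631, 0.0212 to 0.0455 and 0.0402 to 0.270. Col4a1 and Col15a1 lay higher in aPD1_lef without overlap over each of the 8 endothelial markers. Col1a1, Col4a1 and Col15a1 were themselves without overlap between these groups, so the counts of markers are given as description. Over Pecam1, Col4a1 was 2.14, 2.07, 2.57 and 4.22 in aPD1_lef, 0.966, 0.773, 0.596 and 0.606 in aPD1_veh and 0.854, 1.12 and 1.60 in IgG_lef, and Col15a1 was 0.745 to 1.03, 0.0438 to 0.158 and 0.209 to 0.473.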

How the data were processed

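Per the labels' protocols, TRIzol was used to extract heart RNA and NEBNext Ultra to make the libraries. The authors deposited 1 table of 34714 genes with 12 columns of values. For 11 columns the name matched a sample's label. The name of 1 column matched no label, having the digits of the fourth IgG_lef sample in another order, and it was not used. No source used here names the unit. Deposited values were read as FPKM computed by the authors, since they are not whole and library totals differ. The submitters' processing notes name HISAT2, DESeq2 and mm10 without roles, and the program that made the values is not given in the sources used here. Whole reads could not be recovered (the commonest ratio between 2 libraries was shared by at most 0.36% of low genes), so depth is unknown and no counting interval is given.

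The filter kept the 12005 genes that reached 1 FPKM in 4 or more libraries, and 10347 genes were at 0 in every library. Values were analysed as log2(FPKM + 1) in a single model of the 3 groups over 11 libraries with limma 3.58.1 (lmFit, eBayes with trend and robust fitting) and statmod 1.5.0 in R 4.3.3. P-values were adjusted by Benjamini-Hochberg over all genes kept, with a threshold of 0.05, and the code was tested on simulated data. Named genes were the 44 collagen chains, and from each further list up to 3 genes, taken by smallest p. Acan, Chad, Hapln1, Matn1, Mmp9, Myh6, Agrn, Dcn, Pdgfra and Pecam1 were named outside that rule after their values were seen. The collagen genes, classes, lists, tests and alternatives were chosen with earlier results of these data known. Coordinates and promoter windows came from RefSeq (GRCm38.p6) and exons from GENCODE M21. Tables and figures used matplotlib 3.10.9, pandas 2.3.3, SciPy 1.17.1 and NumPy 2.4.6 under Python 3.11.15. The alternatives were other scalings (quantile, same total, median ratio), a pseudocount of 0.1, a filter over 3 libraries or none, eBayes without trend or without robust weights, a fit without the remaining group, a block for the replicate number, and omission of each library or of the 3 libraries with Myl7 above 10 FPKM.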

Additional observations from a re-analysis of the deposited data

Results flagged for a closer look

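In groups of 4 libraries, 57 sets of values of collagen chains were searched for a library that stands apart by Dixon's gap ratio (above its critical value), and 5 were found. Chance gives about 1 in 20 groups. In aPD1_lef library 4, Col4a1 was at 519.9 FPKM, Col6a3 at 22.96 FPKM and Col20a1 at 1.536 FPKM, each far above the other 3 libraries of its group. Col2a1 was at 0.7769 FPKM in aPD1_lef library 1, against at most 0.0732 FPKM in the rest of that group. Col8a1 was at 8.204 FPKM in aPD1_veh library 1, against 4.36 to 4.97 FPKM in the other 3 aPD1_veh libraries, and still below every aPD1_lef library.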

How the results depend on the processing

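Between aPD1_lef and aPD1_veh, the count of collagen chains called stayed within 1.5 times of 24 under every alternative run. Leaving out each library in turn gave 23 to 24 chains and 2413 to 4316 of all genes (3892 with all libraries). The other comparisons were less stable. Between aPD1_veh and IgG_lef (4 chains and 140 genes called), there were 2 chains and 92 genes with no filter, 0 chains without the 3 libraries with atrial transcripts (15 chains at an unadjusted p under 0.05, limma), 405 genes with only the groups compared in the fit, and 0 to 8 chains and 3 to 478 genes with a library left out. Between aPD1_lef and IgG_lef (16 chains and 859 genes), there were 277 genes with no filter, 0 chains and 0 genes with only the groups compared (24 and 2670 at an unadjusted p under 0.05, limma), 2180 genes without the 3 libraries with atrial transcripts, and 1 to 22 chains and 2 to 2328 genes with a library left out. With the replicate number as a block, limma called 24 chains and 3602 genes between aPD1_lef and aPD1_veh, 0 chains and 0 genes between aPD1_veh and IgG_lef (16 and 1494 at an unadjusted p under 0.05), and 0 chains and 0 genes between aPD1_lef and IgG_lef (23 and 2830). Libraries of the same number correlated at -0.29 to 0.194, within the range of -0.421 to 0.388 for libraries of different number and group. With so few libraries per group, this check cannot decide whether the numbers pair the samples. Signs turned in values that were not called. The log2 change of Col20a1 between aPD1_lef and aPD1_veh was -0.0107 with quantile normalization and -0.068 (without aPD1_lef replicate 4) to 0.0881 with a library left out. Between aPD1_veh and IgG_lef it was -0.000113 with every library at the same total and -0.0102 (without IgG_lef replicate 1) to 0.11, and between aPD1_lef and IgG_lef -0.0269 (without aPD1_lef replicate 4) to 0.146. That of Col4a2 between aPD1_veh and IgG_lef was -0.362 to 0.0416 (without IgG_lef replicate 3). The cause of these shifts was not tested. Precision is limited by the number of libraries, and depth is unknown.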
